A study of Homo sapiens with 4 samples.

Results

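The BCL2 family apoptosis regulators described here are 10 genes, namely the pro-survival genes BCL2, BCL2L1 and MCL1, the effector genes BAX and BAK1, and the BH3-only genes BID, BAD, BBC3, PMAIP1 and BCL2L11. They were chosen by name from the 61498 genes in the files, and each symbol matched 1 gene identifier. RNA carrying a poly(A) tail was read out in K562 cells, a human chronic myeloid leukemia line that carries the BCR-ABL1 fusion kinase and is able to take on erythroid features. The 2 untreated libraries (labelled WHITE) came from cells without the drug, and the 2 hemin libraries (labelled RED) from cells kept with 50 µM hemin for 108 h. Nothing in the labels says whether the 2 libraries of a condition came from separate cultures, so the p-values measure the spread between these libraries, which may be technical.

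Proteins of the BCL2 family decide whether the outer mitochondrial membrane stays intact. BAX and BAK1 form pores in that membrane, through which cytochrome c leaves to start the caspase cascade. BCL2, BCL2L1 (BCL-XL) and MCL1 hold the effectors in check, and the BH3-only proteins bind the pro-survival proteins, and some of them the effectors, through a short helix called the BH3 segment. In erythroid cells BCL2L1 is known as a survival gene of late maturation, and MCL1 as a short-lived protein that early progenitors need.

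The BH3 segment is the sequence feature these proteins share. It is shown for the genes on which the results turn, with BAX as an effector for comparison. The stretches are coding DNA of GRCh38 taken from the MANE Select transcripts of GENCODE 44, read 5′ to 3′ on the coding strand, 54 bases each. Capitals mark the codon of the leucine that most BH3 segments share and the pair of codons that follows after 3 others, a small residue and aspartate.
PMAIP1: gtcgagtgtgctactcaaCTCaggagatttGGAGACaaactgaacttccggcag
BBC3: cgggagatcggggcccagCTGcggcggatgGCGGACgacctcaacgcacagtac
BCL2L11: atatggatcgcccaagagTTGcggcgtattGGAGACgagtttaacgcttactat
MCL1: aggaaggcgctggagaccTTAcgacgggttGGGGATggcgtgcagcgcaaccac
BCL2L1: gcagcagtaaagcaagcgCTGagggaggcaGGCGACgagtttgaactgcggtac
BAX: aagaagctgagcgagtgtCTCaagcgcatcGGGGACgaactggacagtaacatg

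Each stretch lay within 1 coding exon. The PMAIP1 stretch is at chr18:59902655-59902708 on the plus strand, and the BBC3 stretch at chr19:47226573-47226626 on the minus strand. The BCL2L11 stretch is at chr2:111150085-111150138 on the plus strand, and the BAX stretch at chr19:48955769-48955822 on the plus strand. The MCL1 and BCL2L1 stretches are on the minus strand, at chr1:150578859-150578912 and chr20:31721916-31721969. The codon before the aspartate codon stood for glycine in 8 of the 10 genes, for alanine in BBC3 and for serine in BAD. The whole coding sequences ran from 54 codons in PMAIP1 to 350 codons in MCL1.

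The expected counts, which RSEM estimates per gene from the reads, summed to between 7455447 and 8241534 per library, and the mitochondrial genome took 12.8% to 13.6% of them. All 10 genes passed the filter on low counts, against 14458 of all 61498 genes. The cells carried erythroid transcripts, since the summed TPM (a transcript level scaled by length and by the library total) of 13 erythroid markers was 6491 and 6686 in the untreated libraries and 8582 and 8046 in the hemin libraries. Of those markers 5 rose after hemin, HBE1, HBZ, HBA1, HBA2 and TFRC, and 2 fell, NFE2 and ALAS2. The 14 markers of other cells, which are blood and stromal markers with the epithelial EPCAM, summed to between 259 and 294 TPM. Of this PTPRC held 208 to 236 and EPCAM 42.35 to 49.22. CD3E, MS4A1, MPO and ELANE were at 0 in all 4 libraries, and none of the 5 markers tested passed the threshold, with 1 of them at an unadjusted p under 0.05.

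BCL2L1 and MCL1 were the most abundant members of the family in K562 cells, and BCL2 was the least abundant. The untreated mean was 103.01 ± 3.10 TPM (SD, n = 2) for BCL2L1, 80.4 ± 0.750 TPM for MCL1 and 7.13 ± 1.53 TPM for BCL2. BAX stood at 69.8 ± 2.64 TPM and BAK1, the other effector, at 11.7 ± 0.481 TPM. Among the BH3-only genes the untreated means ran from PMAIP1 at 52.4 ± 3.49 TPM through BCL2L11 at 36.8 ± 4.23, BID at 30.2 ± 1.31 and BBC3 at 27.3 ± 0.509 to BAD at 12.8 ± 0.0778 TPM. The order of the 10 means was the same after hemin, and the library values of neighbours in that order overlapped only for BAD and BAK1 in the hemin libraries.

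**Figure D1:**
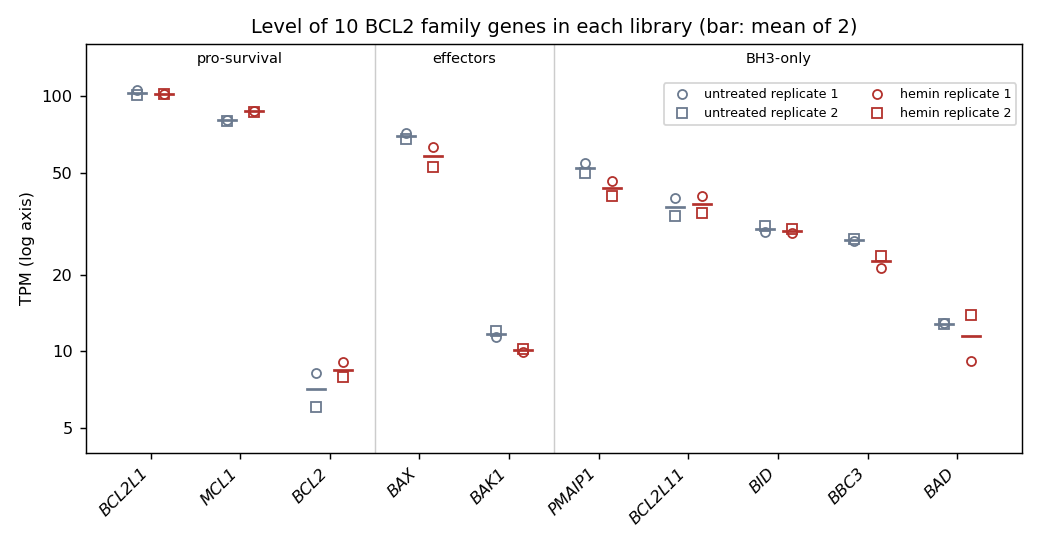
TPM of each of the 10 genes on a log axis, with circles for replicate 1, squares for replicate 2 and a bar at the mean of the 2 libraries of a condition. BCL2L1 and MCL1 lie highest in both conditions and BCL2 lowest, and the hemin libraries lie below the untreated ones for PMAIP1, BBC3, BAK1 and BAX.

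Hemin treatment was compared with no treatment on the counts, with the quasi-likelihood test of edgeR. PMAIP1 was the member whose transcript level changed past the threshold, and it fell. The other 9 members did not pass an adjusted p of 0.05, with no member called higher and 1 called lower. Over all genes tested 14.1% were called, 7.0% higher and 7.14% lower, so that 1 call among 10 genes is near the background. At an unadjusted p under 0.05 there were 3 members, PMAIP1 and BBC3 lower and BCL2L11 higher, against 29.4% of all genes, 14.8% higher and 14.6% lower. DESeq2 called none of the 10, against 8.25% of the genes to which it gave an adjusted p. The median log2 fold change of the 10 genes was -0.014, beside -0.0048 over all genes tested. RNA was measured from whole cultures, so fewer cells carrying a transcript and less of it per cell cannot be told apart.

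**Figure D2:**
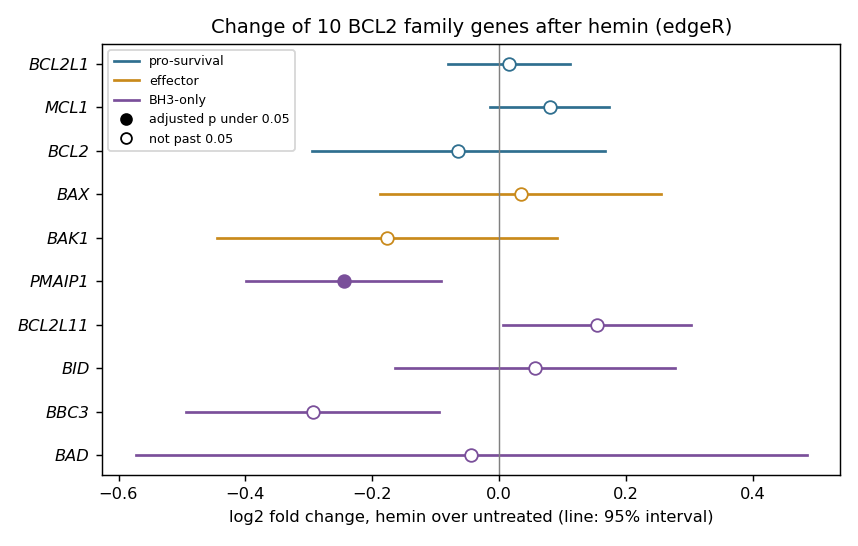
Log2 fold change of each gene, hemin over untreated, from edgeR, with a line for the 95% interval and a filled point where the adjusted p was under 0.05. PMAIP1 has the filled point, at -0.24, and the intervals of 7 of the 10 genes cross no change.

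PMAIP1 encodes NOXA, a small BH3-only protein that binds MCL1 and promotes its breakdown. The gene (ENSG00000141682) lies at chr18:59899996-59904305 on the plus strand. Its expected counts were 441 and 425 in the untreated libraries and 357 and 378 in the hemin libraries. In CPM, counts scaled to a common library size, these were 55.8 and 56.8 against 48.1 and 46.9, so that both hemin libraries lay below both untreated ones. The log2 fold change was -0.24 (SE 0.068, 95% interval -0.40 to -0.09), a fall of the level by 15.6%, and the adjusted p was 0.0431 by edgeR (quasi-likelihood, Benjamini-Hochberg). The call did not hold with 3 libraries. Leaving out untreated replicate 1, untreated replicate 2, hemin replicate 1 or hemin replicate 2 gave adjusted p-values of 0.118, 0.152, 0.0955 and 0.165 in the same edgeR fit, with the log2 fold change between -0.26 and -0.22. With DESeq2 the adjusted p was 0.266.

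BBC3 encodes PUMA, a BH3-only protein that binds all of the main pro-survival proteins. It (ENSG00000105327) lies at chr19:47220822-47232766 on the minus strand. The expected counts were 248 and 237 in the untreated libraries and 184 and 214 in the hemin libraries, again with no overlap between the conditions. The log2 fold change was -0.29 (SE 0.089, 95% interval -0.49 to -0.09), a larger difference than that of PMAIP1 on fewer counts. It did not pass the threshold, with an adjusted p of 0.0563 by edgeR (quasi-likelihood, Benjamini-Hochberg). With library size alone as the scaling the adjusted p was 0.0352, so the call turned on the setting.

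BCL2L11 encodes BIM, a BH3-only protein that binds every main pro-survival protein as well as BAX, and that is known to be held low by BCR-ABL1 signalling. The gene (ENSG00000153094) lies at chr2:111119378-111168444 on the plus strand. Its expected counts were 710 and 609 without hemin and 730 and 745 with it. After scaling these were 89.7 and 81.4 against 98.5 and 92.4 CPM, so that the hemin libraries were the higher ones, while the TPM of the conditions overlapped, at 39.8 and 33.8 against 40.4 and 34.96. The log2 fold change was 0.15 (SE 0.066, 95% interval 0.0067 to 0.30), with an adjusted p of 0.153 by edgeR (quasi-likelihood, Benjamini-Hochberg). Leaving out untreated replicate 1 gave 0.23 and leaving out untreated replicate 2 gave 0.09. The gene shares 727 exon bases with MIR4435-2HG, a long noncoding RNA gene on the opposite strand, and the stated quantification set no strand, so reads there cannot be told apart. MIR4435-2HG had expected counts of 2106 and 1806 without hemin and 1623 and 1820 with it, and it fell by 0.19 on the log2 scale (adjusted p = 0.0432 by edgeR (quasi-likelihood, Benjamini-Hochberg)). Its part in the BCL2L11 value was not tested.

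Neither of the remaining BH3-only genes, BID and BAD, passed the test. BID links death receptors to mitochondria, since caspase 8 cuts it to an active fragment. It lies at chr22:17734138-17774770 on the minus strand. Its expected counts were 196 and 205 without hemin and 193 and 227 with it, so the conditions overlapped. The log2 fold change was 0.06 (95% interval -0.16 to 0.28), and leaving out untreated replicate 1 gave -0.014, leaving out hemin replicate 2 -0.0019. BAD is a BH3-only protein that phosphorylation by survival kinases keeps bound to YWHA adaptor proteins in the cytosol, and its gene lies at chr11:64269830-64284704 on the minus strand. It had the fewest reads of the family, with expected counts of 48.3 and 47.2 without hemin and 36.8 and 55.5 with it. The hemin libraries thus lay on either side of the untreated ones. The interval of its log2 fold change, -0.57 to 0.49 around -0.04, was the widest of the 10, and leaving out hemin replicate 1 gave 0.18, leaving out hemin replicate 2 -0.31. BAD shares 404 exon bases with GPR137 on the opposite strand, which was not called.

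None of the pro-survival genes passed the test. BCL2L1 (ENSG00000171552, chr20:31664452-31723989, minus strand) had expected counts of 1435 and 1335 without hemin and 1345 and 1470 with it. Its log2 fold change was 0.015 (SE 0.043), and the 95% interval of the change in level ran from -5.47% to 8.05%. MCL1 (ENSG00000143384, chr1:150560895-150579738, minus strand) had expected counts of 1621 and 1518 without hemin and 1595 and 1741 with it. In CPM these were 205 and 203 against 215 and 216, so that both hemin libraries were above both untreated ones. The log2 fold change was 0.08 (SE 0.042, 95% interval -0.01 to 0.17), with an adjusted p of 0.240 by edgeR (quasi-likelihood, Benjamini-Hochberg). MCL1 shares 43 exon bases with ADAMTSL4 on the opposite strand, and that gene fell by 1.07 on the log2 scale (adjusted p = 3.0e-05 by edgeR (quasi-likelihood, Benjamini-Hochberg)). The part of those shared bases in the MCL1 value was not tested. BCL2 (ENSG00000171791, chr18:63123346-63320128, minus strand), the founding member of the family, had 261 and 220 expected counts without hemin and 237 and 225 with it. Those values overlapped, and its log2 fold change was -0.06 (95% interval -0.30 to 0.17), with 0.02 when untreated replicate 1 was left out and 0.033 when hemin replicate 2 was.

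Of the effectors, BAX (ENSG00000087088, chr19:48954815-48961798, plus strand) had expected counts of 282 and 247 without hemin and 282 and 262 with it. The conditions overlapped, and the log2 fold change was 0.03 (SE 0.099, 95% interval -0.19 to 0.26), with -0.02 when untreated replicate 2 was left out and -0.074 when hemin replicate 1 was. BAK1 (ENSG00000030110, chr6:33572547-33580293, minus strand), which VDAC2 is known to hold at the mitochondrial surface, had 135 and 138 expected counts without hemin and 114 and 129 with it. Its hemin libraries were the lower ones, while the log2 fold change of -0.18 (SE 0.119, 95% interval -0.44 to 0.09) did not pass the test, with an adjusted p of 0.373 by edgeR (quasi-likelihood, Benjamini-Hochberg). Of its pseudogenes BAK1P1 had at most 2.02 expected counts in a library and BAK1P2 had 0 in all.

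Other genes of the annotation overlap members. BCL2L1 shares 1735 exon bases with ABALON on the opposite strand, which had at most 10.7 expected counts in a library. Within the span of BCL2, without shared exon bases, lies ENSG00000283125 on the opposite strand, with 71 and 68 expected counts without hemin and 42 and 57 with it, which was not called. The others had at most 11.1 expected counts in any library, namely ENSG00000267766 at BCL2, BCL2L1-AS1 at BCL2L1, ADAMTSL4-AS1, ENSG00000289457, RN7SL473P and RN7SL600P at MCL1, GGNBP1 at BAK1, MIR3198-1 at BID, and MIR3190 and MIR3191 at BBC3.

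Over the family, the scaled counts of the conditions did not overlap for 3 genes that were lower after hemin, BAK1, BBC3 and PMAIP1, and for 2 that were higher, MCL1 and BCL2L11. Among all genes tested 29.3% did not overlap in the lower and 28.1% in the higher direction. In TPM 4 genes were lower without overlap, BAX joining them, and MCL1 was the 1 higher gene, against 28.5% and 21.3% of all genes. For the scaled counts the lower members, 3 of 10, were as frequent as such genes in the whole table.

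BAX and BCL2 were the genes for which the counts and the TPM differed most. TPM divides the reads by the effective length, which RSEM averages over a gene's transcripts by their estimated shares. For BAX that length was 701 and 671 bases without hemin and 823 and 836 bases with it. Its TPM was 71.7 and 68.0 without hemin and 63.4 and 52.8 with it, a log2 ratio of means of -0.27, while the length differed by 0.27 and the counts by 0.03 on the same scale. For BCL2 the effective length was 5666 and 6713 bases against 4849 and 4784, a log2 ratio of -0.36. Its mean TPM was higher after hemin, by a log2 ratio of 0.25, although its counts were not. For PMAIP1 the length ratio was -0.013 and for BBC3 -0.048, and their log2 TPM ratios of -0.26 and -0.28 were close to those of the counts. Whether transcript use differed was not tested, since the gene tables hold no level per transcript.

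**Figure D3:**
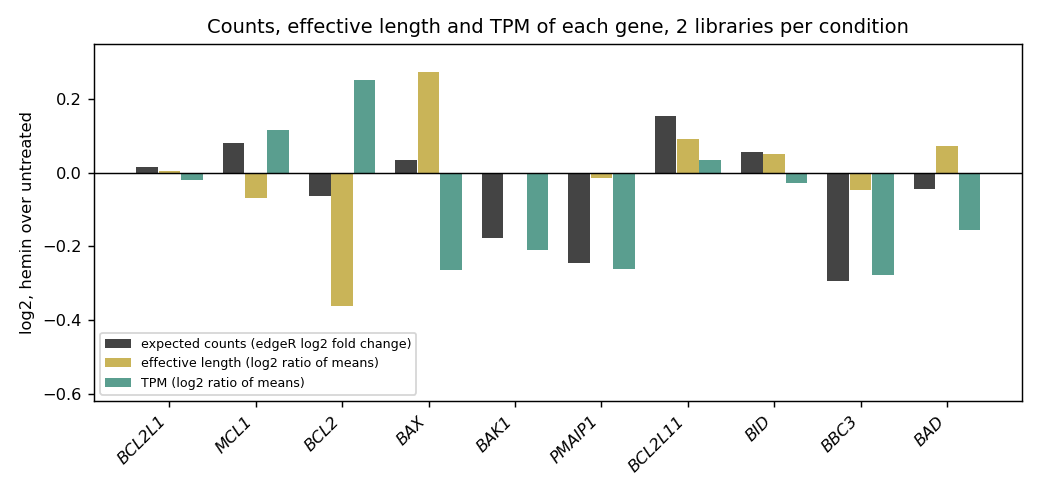
For each gene, the edgeR log2 fold change of the counts, the log2 ratio of mean effective length and the log2 ratio of mean TPM, hemin over untreated, with 2 libraries per condition. The length bars of BAX and BCL2 are the longest of all genes shown, whereas the count and TPM bars of PMAIP1 and BBC3 are close to each other.

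The make-up of the family was described by shares of the summed TPM of the 10 genes, which was 441 and 422 without hemin and 418 and 402 with it. Pro-survival transcripts held 44.1% and 44.2% of it in the untreated libraries and 47.5% and 48.7% in the hemin libraries. Effector transcripts held 18.8% and 19.0% without hemin and 17.5% and 15.7% with it, and BH3-only transcripts 37.1% and 36.8% against 35.01% and 35.7%. By TPM the pro-survival share was thus higher in both hemin libraries and the other shares lower. No test was made on these shares, and the effector share rests mostly on the TPM of BAX, whose effective length differed as given above. The pro-survival share is not free of this limit, since BAX is part of the sum and BCL2 is a pro-survival gene. Shares were not computed from counts, nor without BAX or BCL2. How far the length differences make up the higher pro-survival share was not tested. PMAIP1 and BBC3 together held 18.5% and 18.4% without hemin and 16.2% and 16.0% with it.

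Ratios between partners within a library do not depend on how the libraries were scaled. Counts are not scaled by gene length, so a ratio of counts does not say which of 2 genes is more abundant. PMAIP1 and MCL1 bind each other, and the ratio of their expected counts was 0.272 and 0.280 without hemin and 0.224 and 0.217 with it. BBC3 and BCL2L1 are another such pair, with 0.173 and 0.177 against 0.137 and 0.146. Both ratios were lower in each hemin library than in either untreated one. They contain the lower counts of PMAIP1 and BBC3 given above, so they are not separate results. How many gene pairs of the whole table separate likewise was not computed. The ratio of MCL1 to BCL2L1 counts was 1.13 and 1.14 without hemin and 1.19 and 1.18 with it. In TPM it was 0.769 and 0.792 against 0.863 and 0.852. The ratio of BCL2L11 to BCL2L1 counts went the same way, at 0.494 and 0.456 against 0.543 and 0.507, but in TPM it overlapped, at 0.378 and 0.335 against 0.398 and 0.344. PMAIP1 and BCL2L11 differed in the sign of their values. The ratio of PMAIP1 to BCL2L11 counts was 0.622 and 0.697 without hemin and 0.489 and 0.507 with it. In TPM that ratio was 1.38 and 1.48 against 1.15 and 1.17. BAX to BAK1 overlapped in counts, at 2.09 and 1.79 against 2.47 and 2.03. It also overlapped in TPM, at 6.32 and 5.65 against 6.38 and 5.15.

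**Figure D4:**
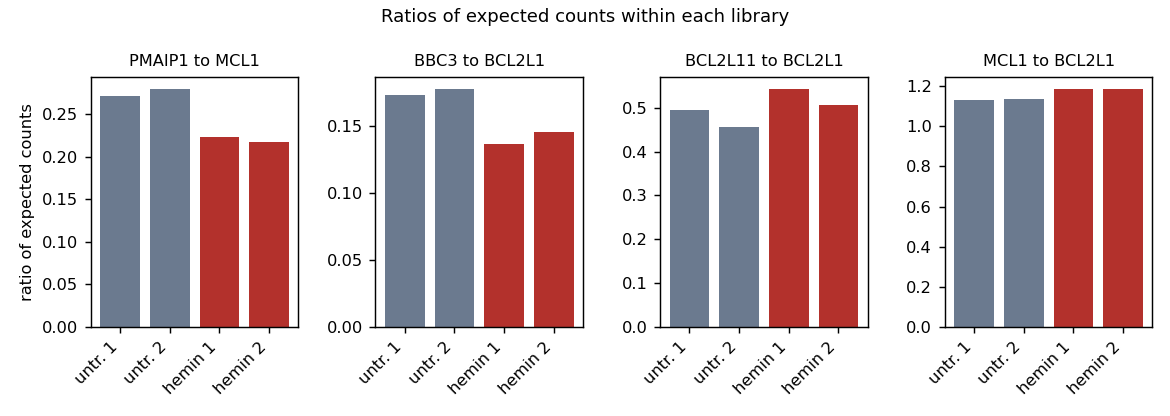
Ratio of expected counts of 2 genes within each library, not scaled by gene length. The untreated libraries are in grey, the hemin libraries in red, and every axis starts at 0. PMAIP1 to MCL1 and BBC3 to BCL2L1 are lower in both hemin libraries, and BCL2L11 to BCL2L1 and MCL1 to BCL2L1 are higher.

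Of 18 further genes of the BCL2 family or named with it, 13 had enough reads. Among these none fell and 1 rose (7.69%, beside 14.1% of all genes tested). That was BCLAF1, a nuclear protein that was found as a partner of viral and cellular BCL2 proteins and that works on RNA rather than at the mitochondrion. Its expected counts were 1148 and 1063 without hemin and 1540 and 1721 with it, so the hemin libraries were far above. It differed by a log2 fold change of 0.55 (SE 0.045), with an adjusted p of 2.1e-04 by edgeR (quasi-likelihood, Benjamini-Hochberg). BCL2L13, a mitophagy receptor, was the most abundant of the list at 86.1 ± 9.79 TPM without hemin and 88.5 ± 8.37 with it (SD, n = 2), and its log2 fold change of -0.12 did not pass the test. At an unadjusted p under 0.05 there were 5 genes of the 13, beside 29.4% of all genes tested. Beside BCLAF1 these were BMF, BNIP3 (log2 fold change -0.21) and BCL2L2-PABPN1 (-0.76), which were lower, and BCL2L2 (0.24), which was higher. Only BCLAF1 passed the adjusted threshold. The median log2 fold change of the list was -0.08. BMF, a BH3-only gene named here after its values were seen, had 33.7 and 47.0 expected counts without hemin and 22.0 and 19.0 with it, a log2 fold change of -0.99 (SE 0.31) with an adjusted p of 0.0640 by edgeR (quasi-likelihood, Benjamini-Hochberg). BCL2A1, BCL2L10, BCL2L14, BCL2L15 and BIK did not pass the filter, with at most 10 expected counts in a library.

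In a list of caspases, the apoptosome and their inhibitors, with the VDAC genes, there were 24 genes, and 23 were tested. It includes CASP8 and CASP10, so it is not confined to steps downstream of the mitochondrion. CASP10, an initiator caspase of death receptors, fell, and no gene of the list rose. The share called was 4.35%, beside 14.1% of all genes tested. An unadjusted p under 0.05 was reached by 6 genes, beside 29.4% of all genes. The counts of CASP10 were 385 and 411 without hemin and 293 and 332 with it. Its TPM overlapped, at 21.1 and 24.7 against 15.4 and 21.8. The log2 fold change was -0.36 (SE 0.083), with an adjusted p of 0.0219 by edgeR (quasi-likelihood, Benjamini-Hochberg). That call was lost without untreated replicate 2 (adjusted p = 0.126 in edgeR) and without hemin replicate 1 (adjusted p = 0.0515 in edgeR). CYCS, the gene of cytochrome c, was the most abundant of the list, at 379 ± 10.6 TPM without hemin and 377 ± 4.22 with it, and its log2 fold change was 0.0053. The median over the list was -0.0036, beside the -0.0048 of all genes.

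In the death receptor list 7 of 12 genes were tested, 1 fell and none rose. The share called was 14.3%, beside 14.1% of all genes tested. An unadjusted p under 0.05 was reached by 2 genes, beside 29.4% of all genes. TNFRSF10B, a receptor of the death ligand TRAIL, had 440 and 464 expected counts without hemin and 352 and 383 with it. Its log2 fold change was -0.31 (SE 0.077), with an adjusted p of 0.0280 by edgeR (quasi-likelihood, Benjamini-Hochberg). The adjusted p in edgeR was 0.154 without untreated replicate 2, 0.0550 without hemin replicate 1 and 0.0648 without hemin replicate 2. CFLAR, which blocks caspase 8 at these receptors, was the most abundant at 118 ± 4.69 TPM without hemin and 94.3 ± 2.93 with it, and its log2 fold change in counts was -0.12, not past the threshold. Leaving out hemin replicate 1 gave -0.068 and leaving out hemin replicate 2 gave -0.17, and with library size alone as the scaling CFLAR passed, at an adjusted p of 0.0445 in edgeR. FAS had between 1 and 4 expected counts in a library and was not tested.

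Of 36 regulators of BCL2 family genes and proteins, 35 were tested, 3 rose and 3 fell. That is 17.1%, near the 14.1% of all genes tested. At an unadjusted p under 0.05 there were 12, beside 29.4% of all genes. The median log2 fold change was 0.06. PIM1 and PIM2 are kinases that phosphorylate BAD, and they went opposite ways. PIM1 had 5511 and 5432 expected counts without hemin and 4025 and 4317 with it, a log2 fold change of -0.40 (SE 0.040, adjusted p = 5.0e-04 by edgeR (quasi-likelihood, Benjamini-Hochberg)). PIM2 had 1200 and 1131 against 1356 and 1533, a log2 fold change of 0.30 (SE 0.045, adjusted p = 0.0036 in the same test). STAT5B, a factor that activates BCL2L1 and PIM1 in erythroid cells, fell by 0.20 on the log2 scale. DDIT3, a stress factor known to raise BCL2L11 and BBC3, fell by 0.39. NFKB1 rose by 0.56, and YWHAB, an adaptor that holds phosphorylated BAD, rose by 0.22. The call of STAT5B was lost without untreated replicate 2 (adjusted p = 0.0798 in edgeR), and that of NFKB1 without untreated replicate 2 (0.0922) or hemin replicate 2 (0.0663). The call of DDIT3 was lost without untreated replicate 1 (adjusted p = 0.0791 in edgeR), untreated replicate 2 (0.103) or hemin replicate 2 (0.110), and that of YWHAB without untreated replicate 1 (0.112) or hemin replicate 2 (0.0616). YWHAE was the most abundant gene of the list, at 565 ± 28.3 TPM without hemin and 590.2 ± 29.3 with it, and did not pass the test.

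**Figure D5:**
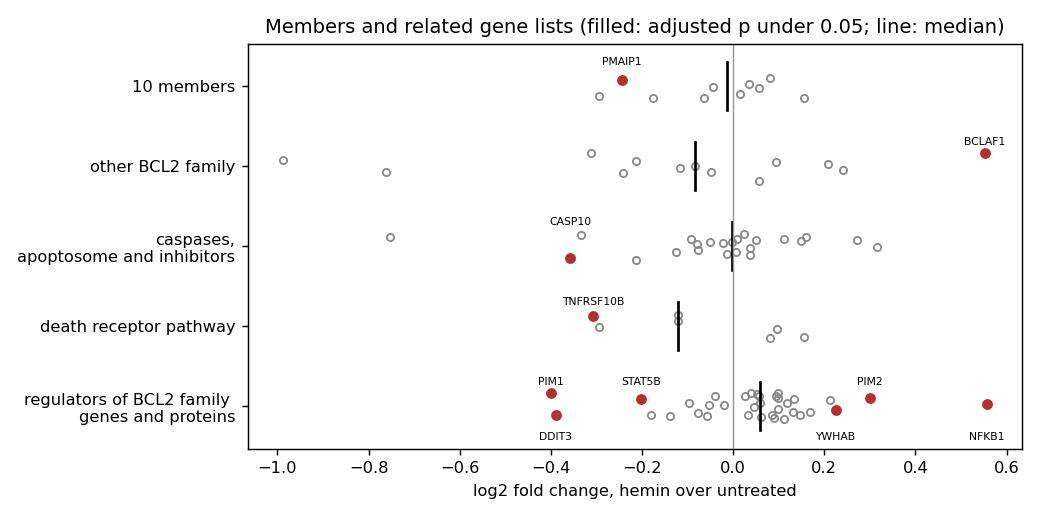
Log2 fold change, hemin over untreated, of the 10 members and of the tested genes in 4 lists, with a red filled point where the adjusted p was under 0.05 and a black line at the median, and with points spread vertically at random for legibility. The regulators have 3 red points on either side of 0, and the members have 1, below 0.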

How the data were processed

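Poly(A) RNA of 4 K562 libraries, 2 untreated and 2 treated with hemin, was sequenced in 50-base reads. The authors trimmed the reads with Trimmomatic 0.39 and quantified them with RSEM 1.3.1 and STAR 2.7.5c on GRCh38 with Ensembl 106, with no strand setting stated. The expected counts deposited are RSEM estimates that divide reads fitting several genes, and the deposited posterior mean counts are averages of RSEM's sampling of that division. The authors' TPM and FPKM values are scaled by effective length, and the deposited lengths are in bases.

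Expected counts were rounded, 14458 genes passed filterByExpr, TMM factors were applied, and edgeR 4.0.16 ran in R 4.3.3, by the quasi-likelihood test with Benjamini-Hochberg adjustment over all genes and a threshold of 0.05. The SE is the log2 fold change divided by the root of F. DESeq2 1.42.0 and limma 3.58.1 on log2(TPM + a pseudocount of 1 or 0.1) were alternatives, among 14 settings in all. A fit without 1 library assumes that the lone library of that condition varies like the other condition. A count of 0 allows up to 3 counts, 0.364 to 0.402 CPM, for counting error only. Scripts were tested on simulated data, where edgeR's false calls were a larger share than the threshold sets.

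Positions and coding sequences came from GENCODE 44, to which 99.8% of the gene identifiers matched. The text names all members, overlapping genes and pseudogenes of members, and in each other list the genes past the threshold (up to 5 per direction) and the most abundant gene. Outside this rule it names BMF, BNIP3, BCL2L2-PABPN1, BCL2L2, FAS, genes that did not pass the filter and some cell markers. A further list and 1 regulator are not reported here. The members and lists were chosen with earlier results of these data known, so no set test or p-value over a list is given. The authors' own differential expression results were not used here. The replicate numbers were not taken as pairs. No library was a copy of another: the mean chi-square per gene between replicates was 1.83 for untreated and 2.24 for hemin, above the 1 of counting error.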

Additional observations from a re-analysis of the deposited data

How the results depend on the processing

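The 10 members were refitted under 14 settings, and no setting called a member higher. PMAIP1, MCL1, BAK1, BBC3 and BCL2L11 kept their direction under all of them. The number of members called lower, 1, was 2 with library size only, with at least 20 counts in both libraries of a condition and with posterior mean counts, where BBC3 joined PMAIP1 at -0.33 (adjusted p = 0.0352), -0.30 (0.0454) and -0.29 (0.0459). It was 0 with DESeq2, without a count filter, with the replicate block and with limma, and it was 0 to 0 when any library was left out. PMAIP1 was then at -0.23 in DESeq2 (adjusted p = 0.266), -0.23 without a count filter (0.0568), -0.24 with the replicate block (0.0639), and -0.26 with limma on log2(TPM + 1), -0.26 on log2(TPM + 0.1) and -0.26 with no filter (0.267, 0.275 and 0.505). Leaving out a library gave -0.26 to -0.22, with adjusted p-values of 0.0955 to 0.165. For BBC3 it gave -0.34 to -0.24, with none past the threshold. The labels do not say whether replicate numbers pair the libraries, and the deviations of same-numbered libraries had a correlation of 0.0047 across genes, over 2 pairs.

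With limma on log2(TPM + 1), on log2(TPM + 0.1) and with no filter, BCL2 was at 0.23, 0.26 and 0.23, BCL2L1 at -0.019, -0.019 and -0.019, BAX at -0.27, -0.27 and -0.27, BID at -0.026, -0.027 and -0.026, BCL2L13 at 0.041, 0.041 and 0.041 and CYCS at -0.010, -0.010 and -0.010, all opposite in sign to the edgeR values of the report and none past the threshold. Of the members named here, BCL2 and BAX differed most in effective length between the conditions, and BID differed by a log2 ratio of 0.05. The cause of the opposite signs was not tested for any of these genes. With library size only BCL2L1 was at -0.023, BAX at -0.0046 and CYCS at -0.033, and the median of all genes was at -0.043. Leaving out a library gave -0.16 to 0.033 for BCL2, -0.074 to 0.15 for BAX, -0.014 to 0.13 for BID, -0.31 to 0.18 for BAD and -0.013 to 0.026 for CYCS.

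Over the whole table, 1012 genes higher and 1033 lower became 589 and 479 in DESeq2, 14 and 33 with limma on log2(TPM + 1), 15 and 34 on log2(TPM + 0.1), 0 and 0 with no filter, 1073 and 1024 with RLE factors, 729 and 1358 with library size only, 1464 and 1321 without a count filter, 1232 and 1265 with at least 20 counts, 1347 and 1357 with posterior mean counts, 855 and 886 with the replicate block, and 469 to 934 and 512 to 884 without a library, fewest without untreated replicate 1. Of the genes called in the 4 lists plotted beside the members, CASP10, TNFRSF10B, DDIT3 and NFKB1 also lost their call in DESeq2 (adjusted p = 0.0767, 0.116, 0.187 and 0.0518). All of those genes lost it with limma on TPM, PIM1 only with no filter. The pro-survival share was 42.6% without hemin and 46.1% with it from posterior mean TPM, 31.4% and 34.1% without MCL1, and 44.1% to 44.2% and 47.5% to 48.7% without a library. Each of these shares includes BAX and BCL2, whose effective lengths differed. Depth limits BAD most, at 36.8 to 55.5 expected counts.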
